A study of Macaca fascicularis with 23 samples.

Results

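The 14 libraries described here compare cynomolgus monkey (Cm) pluripotent stem cells (PSCs) before and after LIF and doxycycline (Dox) were taken out of their medium. They are the 7 naïve-like and the 7 differentiated libraries of the same 7 cell lines, among 23 libraries in the series, and each differentiated library was paired with the naïve-like library that carries the same line name. CMK6, TRSK and CMK9 are embryonic stem cell (ESC) lines. The other 4 are induced (iPSC) lines, of which iPS-L3 and iPS-L6 came from the liver and iPS-S6 and iPS-S12 from the stomach of a single female foetus. Each line gave 1 library per medium, so the 7 lines were the replicates, with the 4 iPSC lines sharing a donor.

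Naïve-like cells were kept in K5cLD medium, a knock-out serum replacement medium with LIF, Dox and a 5-chemical mix (5c) of Gö6983, forskolin, kenpaullone, CHIR99021 and SB590885. Differentiated cells were kept in K5c medium, which holds the same chemicals and serum replacement but neither LIF nor Dox, so the effects of the separate removals cannot be told apart here. All lines of both groups carried PiggyBac transgenes for human KLF2 and human NANOG coupled to Venus under a Dox-inducible promoter, together with rtTA and an EOS-GFP and puromycin resistance reporter, and ESC lines with a CAG-driven Su9DsRed transgene were also made. In medium with LIF but no Dox, the study still found some expression of the NANOG transgene in TRSK and iPS-S6. The iPSC lines had been derived with episomal vectors for L-MYC, LIN28, KLF4, SOX2, OCT3/4 and a p53 hairpin, and the vector with OCT3/4 was still found by genomic PCR in both liver lines and in a stomach line, which the study's text names as iPS-S6 in one place and as iPS-S12 in another. Cells for RNA were grown without feeders on a laminin matrix. The time without LIF and Dox before RNA was collected is not given for these libraries in the sources used here. SC3-seq reads the 3′ ends of cDNA that was amplified from 1 ng of total RNA.

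LIF is a cytokine that signals through the LIFR and gp130 receptors, JAK kinases and STAT3, and in mouse naïve stem cells it feeds transcription factors of the KLF family. KLF2 and NANOG are transcription factors of the network that also contains OCT3/4 and SOX2 and that holds cells in a self-renewing state. When this network is released, stem cells move toward the germ layers, and a neural fate is commonly reached where mesoderm and endoderm signals are weak. LIFR, IL6ST, STAT3, SOCS3, KLF2 and NANOG were not analysed here, so the withdrawal was read from other genes.

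Expression was taken as log2(RPM + 1), where RPM is the number of reads scaled to the library total. A gene was tested when it was above 4 on this scale in at least 1 of the 14 libraries, which 2654 of 8415 genes (31.5%) were. The step between the lowest values put the depth at 902000 to 5619000 reads per library, with medians of 3063000 in differentiated and 2648000 in naïve-like libraries. The level given by 3 reads, below which a gene was read as not detectable, lay between 0.53 and 3.32 RPM, and a value within 1% of it was counted as 3 reads. Library numbers ran by condition in the labels, so a batch of library preparation and the medium cannot be told apart.

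The stem cell label of the naïve-like libraries was checked with markers. POU5F1, SOX2, DPPA4, L1TD1 and LIN28A were above their 3-read level in all 7 naïve-like libraries, with a summed level of 1554.1 to 2514.6 RPM. In differentiated libraries they summed to 1027.0 to 2137.9 RPM, so the ranges overlapped and the sum does not separate the groups. Markers of other cell types were measured as well. NES and FABP7 of neural cells summed to 96.9 to 377.4 RPM in naïve-like and 321.6 to 682.0 RPM in differentiated libraries. COL1A2 of fibroblasts, the only one of its 7 markers analysed, had 5.55 to 65.6 RPM and 8.50 to 257 RPM. The mesoderm markers T, MIXL1 and KDR summed to at most 10.4 and 6.4 RPM, respectively. The endoderm markers AFP and ALB summed to 0 to 33.2 RPM in naïve-like and 2.2 to 151.5 RPM in differentiated libraries. AFP was called higher, while ALB was listed at 0 in all naïve-like and 6 of 7 differentiated libraries. The trophoblast and amnion markers TFAP2A, TP63, CGA and VTCN1 summed to 4.8 to 18.6 RPM and 6.4 to 55.3 RPM, with TFAP2A called higher. The part of other cell types in the results below was not tested. Naïve-like CMK6 stood apart from the other naïve-like libraries. It was the lowest of the 7 with a gap past Dixon's critical value in 9 named genes, among them SOX2, CAV1 and ID4, and the highest in 2. Results are therefore also given without this line for several calls and values, but not for every one that it moved.

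After withdrawal genes were called in both directions in similar numbers. In limma's test with the line as a block, 672 of 2654 genes (25.3%) differed at an adjusted p under 0.05. Of these, 315 were higher (11.9% of the genes tested) and 357 lower (13.5%) in differentiated cells. The change had the same direction in all 7 lines for 212 of the higher and 267 of the lower genes. Among called genes, 29 fell and 17 rose by at least 2 on the log2 scale, and 9 fell and 0 rose by at least 3. These sizes depend on the pseudocount, and with 0.1 in place of 1 the numbers were 48 and 45 by at least 2 and 18 and 8 by at least 3. The values of the 7 naïve-like and 7 differentiated libraries did not overlap for 81 lower and 39 higher genes, together 4.52% of the genes tested. In bulk RNA, fewer cells of a type and less RNA per cell cannot be told apart, and this holds for every value below. Without CMK6, 597 genes were called, 272 higher and 325 lower. A gene that passed the filter in 1 group alone had its highest library there, which favours a change in that direction. Of 174 genes that passed in naïve-like libraries alone 70 fell and 0 rose, and of 177 that passed in differentiated libraries alone 57 rose and 0 fell. Lists are therefore also counted over the genes that passed in both groups, 2303 in all, of which 11.2% were called higher and 12.5% lower.

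**Figure D1:**
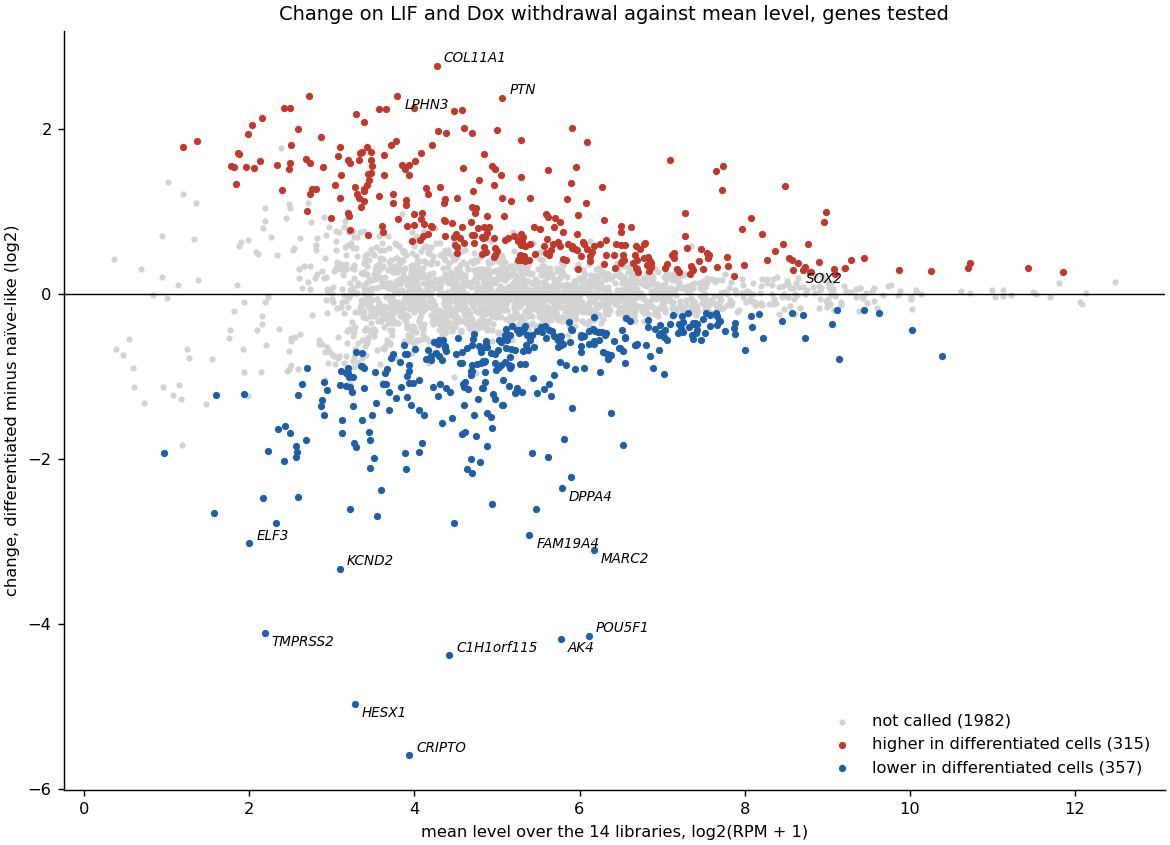
Change on withdrawal (y axis, differentiated minus naïve-like, log2) of the 2654 genes tested against their mean level over the 14 libraries (x axis, log2(RPM + 1)), with 315 genes called higher in red, 357 called lower in blue and the others in grey. The falls of CRIPTO, HESX1 and POU5F1 lie well below the bulk of the genes, SOX2 lies near 0, and the highest rise is that of COL11A1 at 2.77.

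Stem cell genes were among the losses. The pluripotency and epiblast list was chosen with earlier results of these data known, so its counts are descriptions. Of 12 tested genes of the pluripotency and epiblast list, 7 fell and 0 rose (1 at an unadjusted p under 0.05), with a median change of -1.46, against -0.02 over all genes tested. CRIPTO, HESX1 and FOXD3 passed the filter in naïve-like libraries alone. Among the 9 that passed in both groups 5 fell, with a median of -1.23. CRIPTO, the coreceptor through which Nodal signals, had 89.1 RPM in the lowest, 104 in the median and 126 in the highest naïve-like library, and 0, 1.00 and 9.07 RPM in differentiated libraries. The 7 naïve-like lines were close together, and in 3 of 7 differentiated libraries CRIPTO was under the 3-read level. The change was -5.59 on the log2 scale (standard error 0.37, adjusted p = 5.51e-07). HESX1, a homeobox repressor of the epiblast and the anterior neural plate, had 28.5, 58.2 and 88.3 RPM in naïve-like libraries and 0, 0 and 7.38 RPM in differentiated libraries. It fell by 4.97 (standard error 0.38, adjusted p = 1.67e-06), again without overlap, and was under the 3-read level in 5 of 7 differentiated libraries.

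POU5F1, which encodes OCT3/4, fell but remained detectable. It had 137, 289 and 575 RPM in the lowest, median and highest naïve-like library and 3.59, 20.2 and 69.2 RPM after withdrawal. The groups did not overlap, and POU5F1 stayed above the 3-read level in all 7 differentiated libraries. It fell by 4.14 (standard error 0.44, adjusted p = 2.84e-05). The differentiated libraries with the least POU5F1 were CMK6 (3.59 RPM) and iPS-S12 (4.68 RPM), and the one with the most was CMK9 (69.2 RPM). The other iPSC lines had 27.6 (iPS-L3), 21.3 (iPS-L6) and 20.2 RPM (iPS-S6), and the part of transcripts from the episomal vector in these values was not tested. Without CMK6 the fall was -3.67. Reads of POU5F1 and CRIPTO can also be split with near-identical pseudogene copies, depending on the alignment.

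DPPA4 and DPPA2, chromatin proteins of pluripotent cells and germ cells, fell too. DPPA4 had 55.1, 156 and 186 RPM in naïve-like and 9.35, 29.3 and 47.5 RPM in differentiated libraries, a change of -2.35 (standard error 0.21, adjusted p = 4.84e-06) without overlap. L1TD1, an RNA-binding protein that derives from a LINE-1 element, fell by 2.22 (adjusted p = 5.72e-05), DPPA2 by 1.69 (adjusted p = 0.000475) and JARID2, a Polycomb subunit, by 1.23 (adjusted p = 0.000117), each in 7 of 7 lines.

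The other 5 tested members of the list were not called. SOX2, the partner of OCT3/4 and also a neural progenitor factor, had 160, 470 and 521 RPM in naïve-like and 220, 471 and 653 RPM in differentiated libraries. Its change was 0.09 (standard error 0.09, adjusted p = 0.497), higher in 5 and lower in 2 lines. It was 0.46 in CMK6 and -0.37 to 0.33 in the other lines. LIN28A, an RNA-binding protein that blocks let-7 maturation, had 766, 1156 and 1545 RPM before and 634, 1086 and 1417 RPM after withdrawal (-0.18, adjusted p = 0.165). LIN28B changed by 0.22, TRIM71 by -0.10 and FOXD3 by -0.53. Of the naïve and preimplantation list, 2 of 8 measured genes passed the filter, DPPA5 and KHDC3L, and both did so through naïve-like CMK6, where each had 31.9 RPM. DPPA5 was listed at 0 in 4 and KHDC3L in 4 of the other naïve-like libraries. Their changes of -0.89 (adjusted p = 0.376) and -0.54 (adjusted p = 0.627) rested on that line, and without CMK6 they were -0.19 and 0.21. Whether these neighbouring genes shared the reads behind their equal value in CMK6 was not tested.

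**Figure D2:**
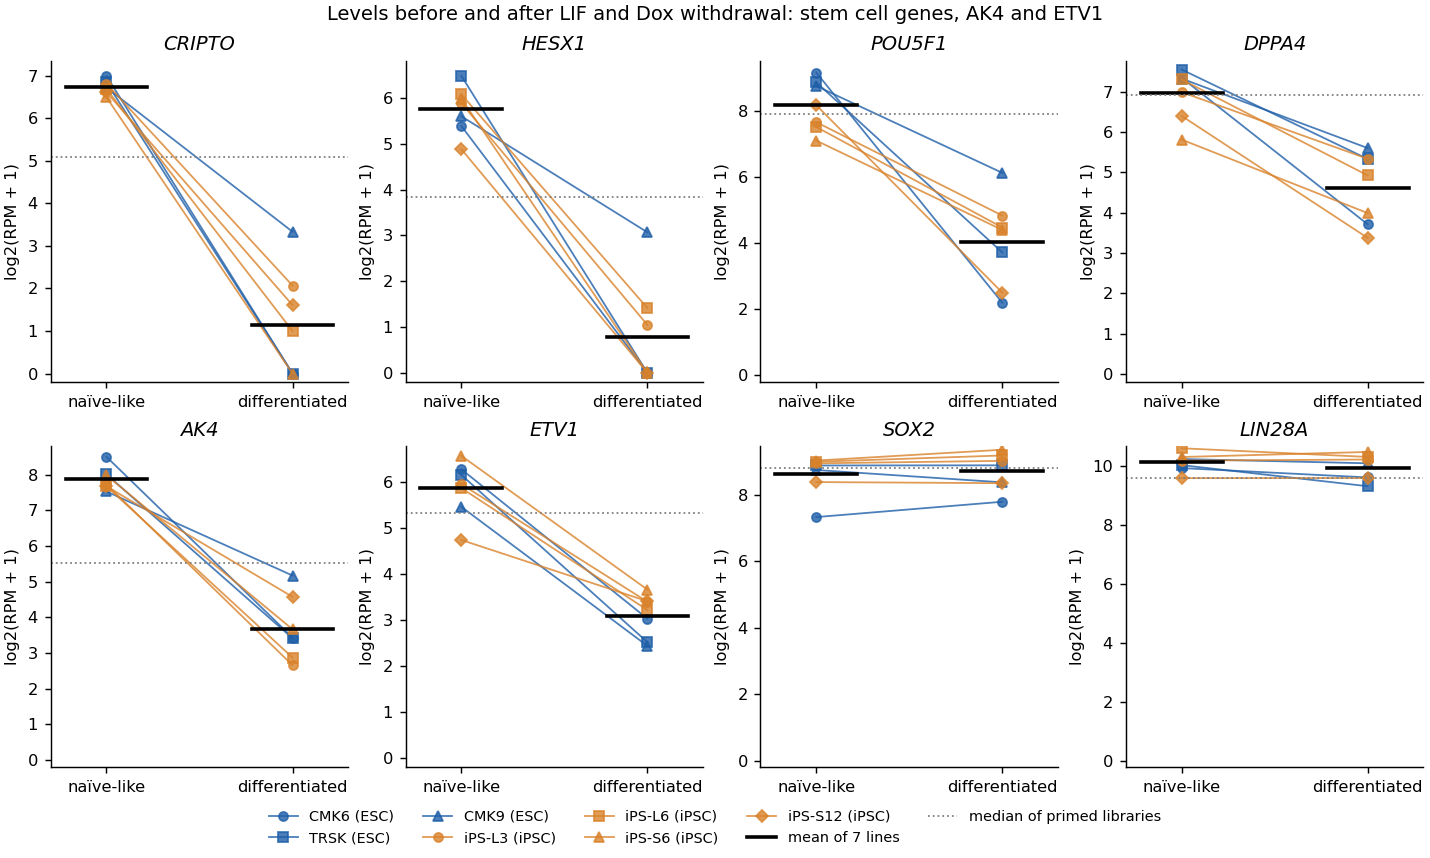
Level in log2(RPM + 1) (y axis) of 8 genes in the naïve-like and differentiated library of each line (joined points; blue for ESC and orange for iPSC lines), with black bars for the mean of 7 lines and a dotted line for the median of the primed libraries. CRIPTO, HESX1, POU5F1, DPPA4, AK4 and ETV1 fall in every line without overlap, with CMK9 the highest after withdrawal for CRIPTO, HESX1, POU5F1 and AK4, while SOX2 (0.09) and LIN28A (-0.18) change little on average.

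The other 7 of the 10 largest falls were in genes outside the pluripotency and epiblast list. All 10 were picked among called genes that fell in every line. TMPRSS2, KCND2 and ELF3 passed the filter in naïve-like libraries alone, which favours a fall. AK4, a mitochondrial adenylate kinase, had 183, 211 and 360 RPM in naïve-like and 5.31, 9.79 and 35.01 RPM in differentiated libraries, and it fell by 4.18 (standard error 0.28, adjusted p = 5.51e-07). C1H1orf115 had 64.8, 92.9 and 155 RPM against 0.67, 2.37 and 16.0 RPM and fell by 4.38 (standard error 0.32, adjusted p = 1.21e-06). Both were clear of overlap. TMPRSS2, a serine protease of the cell surface, had 13.0, 17.0 and 28.0 RPM in naïve-like libraries and was listed at 0 in 6 of 7 differentiated libraries, the other being CMK9 with 0.84 RPM (change -4.11, adjusted p = 2.06e-06). MARC2, a molybdenum enzyme of mitochondria, fell by 3.10 (adjusted p = 1.36e-05), from a median of 184 to 25.3 RPM. KCND2, a potassium channel subunit, fell by 3.33 (adjusted p = 7.2e-05), from a median of 26.6 to 3.18 RPM, and FAM19A4, a small secreted protein, by 2.92 (adjusted p = 2.84e-05), from 104 to 9.29 RPM. ELF3, an epithelial ETS factor, varied most between lines. It had 81.7 RPM in naïve-like CMK6 and 57.0 RPM in iPS-S12 but 1.46 to 9.47 RPM in the other 5 naïve-like libraries, and at most 1.96 RPM after withdrawal. Its change was -3.02 (adjusted p = 0.000764). Of these 10 falls, 6 were smallest in CMK9.

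Signalling genes were read pathway by pathway. The counts of each list stand beside 11.9% higher and 13.5% lower over all genes tested. Of the LIF-JAK-STAT list 3 of 6 measured genes were tested. JAK1, the kinase under gp130, had 23.3, 32.7 and 58.0 RPM in naïve-like and 34.0, 47.2 and 83.3 RPM in differentiated libraries, a rise of 0.42 (standard error 0.13, adjusted p = 0.0293) in 7 of 7 lines. PIM1, a kinase gene induced by STAT factors, fell by 0.62 (standard error 0.21, adjusted p = 0.0452) in 5 of 7 lines. Both calls were weak. That of PIM1 ended in 12 of 17 alternatives, including those without TRSK, CMK9, iPS-L3, iPS-L6 or iPS-S12 in turn, and that of JAK1 in 6, including those without CMK9, iPS-L6 or iPS-S12. CISH, a STAT-induced feedback inhibitor, was not called (0.14, adjusted p = 0.796).

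Of 9 tested genes of the FGF-ERK list, 3 fell and 1 rose, with a median of -0.20. ETV1, an ETS transcription factor, had 25.8, 61.2 and 94.3 RPM in naïve-like and 4.43, 8.32 and 11.7 RPM in differentiated libraries, a fall of 2.77 (standard error 0.24, adjusted p = 3.06e-06) without overlap. Its relative ETV5 fell by 1.68 (adjusted p = 0.00357) in 7 of 7 lines, and IL17RD, a feedback inhibitor of FGF receptors, by 1.11 (adjusted p = 0.0081) in 6 of 7 lines. EPHA2, an ephrin receptor counted in the same list, rose by 0.74 (adjusted p = 0.0247), a call that ended without CMK6, TRSK, CMK9 or iPS-S12. BRAF (0.13), FGFR3 (-0.20), FGF12 (-0.12) and IER3 (0.20) were among the other 5 of 9 tested members, which were not called. ETV1 and ETV5 passed the filter in naïve-like libraries alone, and among the 7 that passed in both groups 1 fell and 1 rose. Over all genes that passed in both groups, 12.5% fell and 11.2% rose. The RAF inhibitor SB590885 was in both media.

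In the Nodal, activin and TGFβ list, 2 of 7 tested genes fell and 2 rose. Both falls were among the 3 genes that passed the filter in naïve-like libraries alone, and both rises among the 4 that passed in both groups. CRIPTO was the larger loss. TGFBR3, a coreceptor that presents TGFβ, had 12.3, 18.1 and 34.9 RPM in naïve-like and 4.25, 8.81 and 12.2 RPM in differentiated libraries, and fell by 1.26 (adjusted p = 0.000705) without overlap. The ligand TGFB2 rose by 1.64 (adjusted p = 0.00244) from a median of 1.51 to 8.50 RPM, in 7 of 7 lines. The Nodal antagonists LEFTY1 and LEFTY2 did not pass the filter. Of 5 tested genes of the BMP list, 3 rose and 0 fell (also 0 at an unadjusted p under 0.05), with a median of 0.87. All 3 were among the 4 that passed the filter in both groups. They were ID4 (1.52, adjusted p = 0.00332) and ID3 (0.59, adjusted p = 0.0158), inhibitors of bHLH factors that BMP induces, and FSTL1, a secreted BMP antagonist (0.87, adjusted p = 0.000391). ID4 had 2.77, 19.9 and 34.4 RPM in naïve-like and 34.2, 47.2 and 108 RPM in differentiated libraries, the lowest naïve-like value being CMK6, and without this line its rise was 1.08. The call of ID3 ended without iPS-S12.

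Of 10 tested Wnt genes, 5 rose and 0 fell (also 0 at an unadjusted p under 0.05), and the median was 0.70. The ligands WNT2B, WNT4 and WNT3A passed the filter in differentiated libraries alone, and among the 6 genes that passed in both groups 2 rose, with a median of 0.55. WNT2B had 0, 1.07 and 4.91 RPM in naïve-like and 3.18, 11.98 and 21.7 RPM in differentiated libraries, and was under the 3-read level in 3 of 7 naïve-like and 0 differentiated libraries. It rose by 2.26 (standard error 0.40, adjusted p = 0.00104). WNT4 rose by 1.71 (adjusted p = 0.00846), from a median of 0.88 to 7.60 RPM, and WNT3A by 1.54 (adjusted p = 0.0248), from 0.53 to 6.99 RPM, although the call of WNT3A ended without CMK6, TRSK, CMK9 or iPS-L6. The receptor FZD1 rose by 1.17 (adjusted p = 0.00804) in 6 of 7 lines. CTNNB1, the β-catenin gene, rose by 0.61 (adjusted p = 0.00487), from 173, 356 and 603 RPM to 410, 535 and 801 RPM. CHIR99021 and kenpaullone, inhibitors of the kinase that degrades β-catenin, were in both media. GSK3B, RSPO3, SFRP4, TNIK and WNT5A were not called.

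Of 6 tested Notch genes, 4 rose and 1 fell, with a median of 0.71. HES1 and DLL1 passed the filter in differentiated libraries alone, and among the 4 that passed in both groups 2 rose and 1 fell, with a median of 0.36. HES1, the transcriptional effector of Notch, had 1.04, 7.88 and 11.8 RPM in naïve-like and 10.1, 19.1 and 26.8 RPM in differentiated libraries, a rise of 1.56 (standard error 0.31, adjusted p = 0.00213) in 7 of 7 lines. The ligand DLL1 rose by 1.59 (adjusted p = 0.0183) in 5 of 7 lines, from a median of 2.22 to 7.83 RPM. PSEN2, a subunit of γ-secretase, rose by 0.83 and the receptor NOTCH2 by 0.59 (adjusted p = 0.0273 for each). RBPJ, the DNA-binding partner of the Notch intracellular domain, fell by 0.51 (adjusted p = 0.01) in 7 of 7 lines. Without CMK6, 2 rather than 4 of these genes were called higher, PSEN2 and NOTCH2 losing their calls, so that the 2 left were HES1 and DLL1. Those of DLL1 ended without iPS-L3 or iPS-L6, those of PSEN2 also without TRSK or iPS-L6, and those of NOTCH2 also without TRSK, CMK9 or iPS-S12.

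Of 11 tested epithelial junction genes, 6 fell and 1 rose, with a median of -0.71. Among the 7 that passed the filter in both groups 5 fell and 0 rose, with the same median of -0.71. PERP, a desmosome protein, had 47.8, 54.0 and 70.7 RPM in naïve-like and 7.83, 10.0 and 35.95 RPM in differentiated libraries, and fell by 2.04 (standard error 0.21, adjusted p = 2.67e-05) without overlap. DSP, which anchors desmosomes to keratin filaments, fell by 1.49 (adjusted p = 0.000711), and F11R, a tight junction adhesion molecule, by 1.44 (adjusted p = 0.000398), each in 7 of 7 lines. ELF3, CGN and CXADR also fell, and the claudin CLDN4 rose by 1.26 (adjusted p = 0.0088). Of 9 tested genes of the mesenchymal transition list, 2 rose (22.2%, against 11.9% over all genes tested) and 1 fell (11.1%, against 13.5%). The fall was in a gene that passed the filter in naïve-like libraries alone. CAV1, the main protein of caveolae, rose by 1.49 (adjusted p = 0.000704), from 30.8, 140 and 231 RPM to 147, 363 and 659 RPM. CNN3, an actin-binding protein, rose by 0.52 (adjusted p = 0.0158), a call that ended without iPS-S12. Its rise was 1.63 in CMK6 and 0.09 to 0.65 in the other lines. The transcription factor TWIST1 fell by 1.81 (adjusted p = 0.00141), from a median of 25.4 to 6.66 RPM.

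Energy genes changed in part. Of 11 tested genes of glycolysis, pyruvate and adenylate kinase, 5 fell and 3 rose, with a median of -0.23. Beside AK4, the falls included PGM1, phosphoglucomutase (-0.46), the lactate transporter SLC16A1 (-0.35) and PDHB, a pyruvate dehydrogenase subunit (-0.23). The rises were in MPC1, the mitochondrial pyruvate carrier (0.67, adjusted p = 0.0055), the phosphofructokinase PFKL (0.64, adjusted p = 0.0139, ended without iPS-S12) and the enolase ENO1 (0.28, adjusted p = 0.00329). ENO1 had 1065, 1103 and 1168 RPM before and 1228, 1386 and 1464 RPM after withdrawal, a small change without overlap. Of 20 respiratory chain genes, 5 fell and 0 rose (also 0 at an unadjusted p under 0.05), among them NDUFA5 (-0.43), COX17 (-0.40), SDHB (-0.36) and UQCRC1 (-0.26), but the median of the list was -0.06. The calls of NDUFA5 and SDHB ended when the 4 iPSC lines of the single donor were averaged into 1 replicate. The call of COX17 ended in 12 of 17 alternatives, including quantile normalization and library centring and those without TRSK, iPS-L3, iPS-L6, iPS-S6 or iPS-S12. Of 8 one-carbon, serine and amino acid stress genes, ATF3, a stress-induced transcription factor, rose by 1.25 (adjusted p = 0.00189) from 5.54, 17.8 and 28.8 RPM to 30.4, 38.2 and 53.9 RPM without overlap. MTHFD1L of the folate cycle fell by 0.52 (adjusted p = 0.00531). PHGDH, the first enzyme of serine synthesis, was called at 0.30 (adjusted p = 0.0486) and lost this in 13 of 17 alternatives, including the removal of any line but TRSK.

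The largest rise was that of COL11A1, a fibrillar collagen chain. It had 1.13, 6.13 and 25.0 RPM in naïve-like and 24.4, 51.5 and 84.8 RPM in differentiated libraries, and rose by 2.77 (standard error 0.33, adjusted p = 6.32e-05). The ranges overlapped only between the highest naïve-like library, CMK9, and the lowest differentiated one, iPS-S6. LPHN3, an adhesion receptor of synapses, had 1.38, 4.43 and 14.4 RPM against 18.1, 28.5 and 57.0 RPM and rose by 2.40 (standard error 0.29, adjusted p = 7.2e-05) without overlap. PTN, a heparin-binding growth factor of the developing brain, had 4.5, 13.4 and 32.1 RPM against 25.7, 78.6 and 241 RPM and rose by 2.38 (standard error 0.39, adjusted p = 0.000612). ELOVL2, which lengthens polyunsaturated fatty acids, rose by 2.26 (adjusted p = 0.000347) and RNF182, a ubiquitin ligase, by 2.24 (adjusted p = 4.76e-05), both without overlap. SSUH2 rose by 2.40 (adjusted p = 0.000625), TFPI2, a protease inhibitor of the matrix, by 2.23 (adjusted p = 0.0007) and PRSS35, a serine protease homologue, by 2.22 (adjusted p = 0.000136). The 10 genes with the largest rises were picked among called genes that rose in every line. Of these, LPHN3, RNF182, SSUH2, WNT2B and HOXA2 passed the filter in differentiated libraries alone, which favours a rise. CMK6 had the largest rise in 8 of the 10 genes. Without it the 10 rises were 1.75 (TFPI2) to 2.48 (COL11A1), and all 10 were still called.

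**Figure D3:**
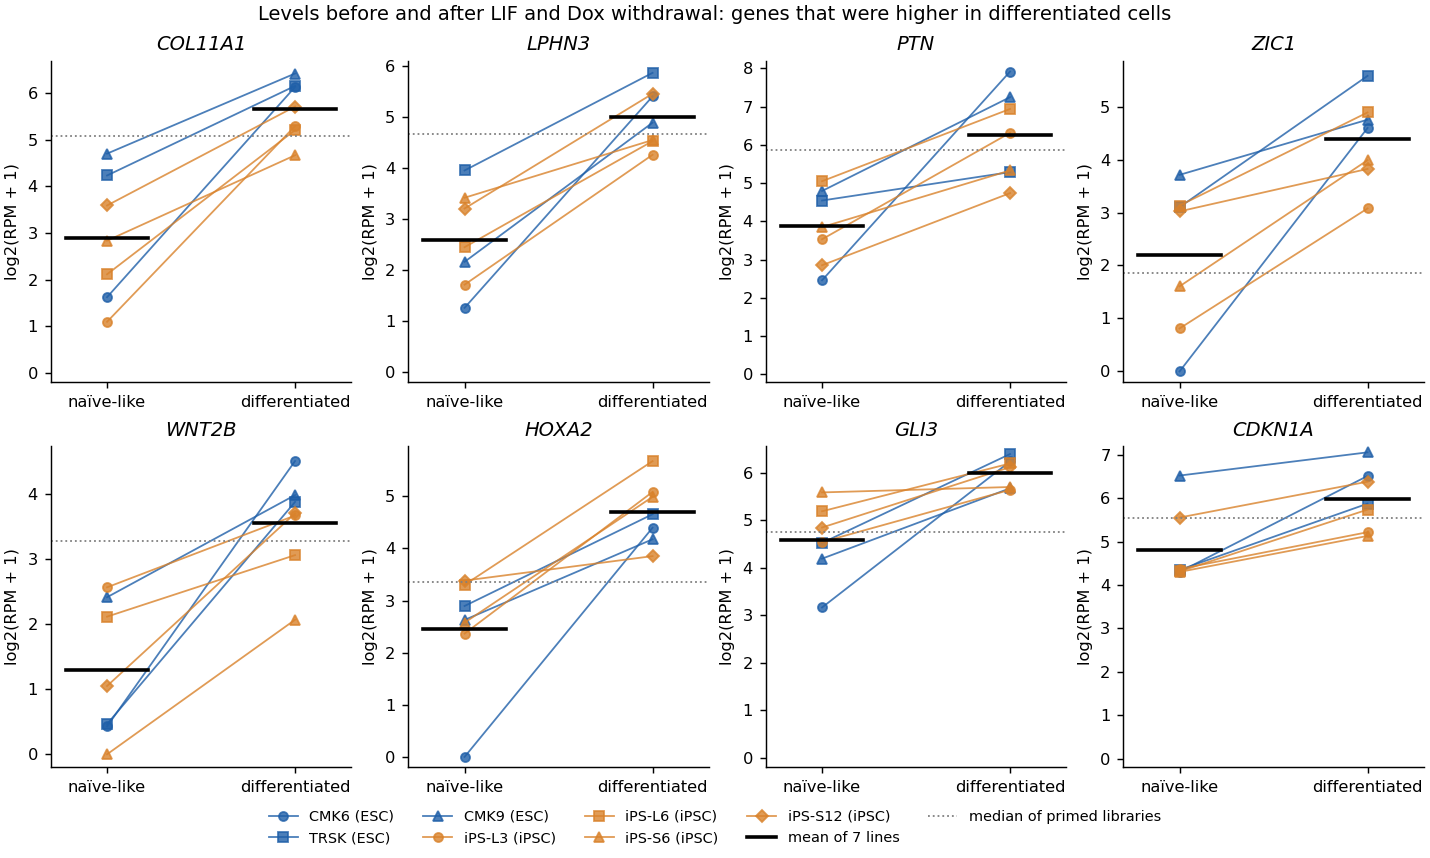
Level in log2(RPM + 1) (y axis) of 8 genes called higher, in the naïve-like and differentiated library of each line, drawn as joined points (blue for ESC and orange for iPSC lines), with black bars for the mean of 7 lines and a dotted line for the median of the primed libraries. Naïve-like CMK6 is the lowest point for PTN, ZIC1, HOXA2 and GLI3, and the rise in this line is the steepest for these genes.

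Neural genes moved both ways. Of 20 tested genes of the neural progenitor and neuronal list, 8 rose and 6 fell, with a median of 0.61. ZIC1, POU3F1, POU3F2 and LPHN3 were among 5 genes that passed the filter in differentiated libraries alone, and EFNA1 and ROBO2 passed in naïve-like libraries alone. Among the 13 that passed in both groups 4 rose and 4 fell. ZIC1, a zinc finger factor of the neural plate, had 0, 7.12 and 12.1 RPM in naïve-like and 7.44, 23.2 and 46.8 RPM in differentiated libraries, and rose by 2.19 (standard error 0.38, adjusted p = 0.000821). POU3F1 (2.14, adjusted p = 0.003) and POU3F2 (1.81, adjusted p = 0.0024), POU factors of neural progenitors, rose in 7 of 7 lines from medians of 1.07 and 1.75 RPM to 7.83 and 10.6 RPM. GLI3, the repressor of the hedgehog pathway, rose by 1.42 (adjusted p = 0.00107) from 7.96, 22.3 and 47.01 RPM to 48.9, 68.4 and 83.0 RPM without overlap. EPHA7, an axon guidance receptor, rose by 2.01 (adjusted p = 0.00541), and NES, the intermediate filament of progenitors, by 0.92 (adjusted p = 0.00181), each in 7 of 7 lines.

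The largest of the 6 falls of this list was that of NPY. NPY, a neuropeptide, had 11.1, 24.2 and 95.9 RPM in naïve-like and 0, 3.66 and 38.8 RPM in differentiated libraries, and fell by 2.69 (standard error 0.36, adjusted p = 0.000123) in 7 of 7 lines. EFNA1, an ephrin ligand (-1.46), the guidance receptors ROBO2 (-1.35) and ROBO1 (-0.94), GAP43, a growth cone protein (-1.20), and NSG1, an endosomal protein of neurons (-1.15), fell in 7 of 7 lines (adjusted p from 0.00238 to 0.00559). FABP7, a radial glia marker, was not called (0.61, adjusted p = 0.407), and neither were CRMP1, PCDH7, SLIT2, TUBB2A and ZIC4.

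Of 25 tested matrix genes, 8 rose and 6 fell, with a median of 0.41. Among the 20 that passed the filter in both groups 6 rose and 5 fell. Beside COL11A1, the collagen chains COL12A1 (1.98, adjusted p = 0.00031), COL9A1 (1.70, adjusted p = 0.0171), COL8A1 (1.32) and COL1A2 (1.17) and the matrix proteins THBS3 (1.19), NID1 (0.79) and CYR61 (0.61) rose. The call of COL9A1 ended without iPS-L6. The falls were in PCOLCE, which enhances procollagen cleavage (-1.84, adjusted p = 0.000145), the lysyl hydroxylases PLOD2 (-1.34) and PLOD1 (-1.02), ADAMTS1 (-1.14), COL26A1 (-0.77) and the laminin chain LAMB1 (-0.43). The third lysyl hydroxylase, PLOD3, was not called (0.37, adjusted p = 0.0848). COL1A2 moved with these genes as the fibroblast marker of the check above, from a median of 25.6 to 101.4 RPM, and the part of other cell types in the collagen rises was not tested.

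Of 11 measured HOX genes 3 passed the filter, of which HOXA2 and HOXA3 did so in differentiated libraries alone, so that nothing can be read from the direction they share. HOXA2, a patterning gene of the hindbrain, had 0, 5.18 and 9.43 RPM in naïve-like and 13.5, 24.2 and 50.1 RPM in differentiated libraries, a rise of 2.24 (standard error 0.36, adjusted p = 0.000504) without overlap, and without CMK6 it was 1.88. HOXA3 rose by 2.00 (adjusted p = 0.00811) in 6 of 7 lines, a call that ended without the filter and when the 4 iPSC lines were averaged. The cluster holds antisense transcripts, and counting did not use strand, so reads of these genes and of antisense partners cannot be told apart.

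Other lineages gave few genes to test. None of 8 measured mesoderm and primitive streak genes passed the filter. Of 4 endoderm genes AFP was tested. It rose by 1.71 (adjusted p = 0.0155) in 6 of 7 lines, from 0, 9.44 and 33.3 RPM to 2.19, 29.8 and 150 RPM, and the call ended without iPS-L3. Of 4 tested trophoblast and amnion genes 2 rose, IGFBP3, an IGF carrier (1.45, adjusted p = 0.000391), and TFAP2A, a factor of surface ectoderm and neural crest as well (1.01, adjusted p = 0.0499). The call of TFAP2A ended in 11 of 16 alternatives, including those without CMK6, TRSK, iPS-L3, iPS-L6 or iPS-S6. TFAP2A passed the filter in differentiated libraries alone, and without CMK6 the list had 1 gene called higher and 1 lower.

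Few genes of proliferation and none of the ribosome were called. Of 31 S and G2/M phase genes, 3 rose (9.7%, against 11.9% over all genes tested) and 1 fell (3.2%, against 13.5%), with a median of 0.07. These were E2F2 (1.22, adjusted p = 0.0161), which passed the filter in differentiated libraries alone, CLSPN (0.66, adjusted p = 0.0293), ANP32E (0.45, adjusted p = 0.000983) and ECT2 (-0.30, adjusted p = 0.0293). The calls of CLSPN and ECT2 both ended without CMK6, CMK9, iPS-L3 or iPS-S12. Of 9 tested cell cycle brakes and p53 targets, 4 rose and 0 fell (1 at an unadjusted p under 0.05), with a median of 0.25. CDKN1A, the p21 inhibitor of cyclin-dependent kinases, had 18.7, 19.3 and 90.7 RPM in naïve-like and 34.0, 57.6 and 132 RPM in differentiated libraries, and rose by 1.17 (standard error 0.18, adjusted p = 0.000449) in 7 of 7 lines. The calls of CCNG2 (0.73, adjusted p = 0.0475), CDK6, a kinase that drives G1 progression (0.69, adjusted p = 0.0257) and GADD45A (0.56, adjusted p = 0.0489) were lost without CMK6, which left 1 of 9. The call of CCNG2 was lost when any line but CMK9 was left out, that of CDK6 also without CMK9, iPS-L6 or iPS-S12, and that of GADD45A also without TRSK, CMK9, iPS-L6 or iPS-S12. Of 4 interferon and antigen presentation genes IFI6 rose (1.46, adjusted p = 0.0139). Of 19 cytosolic ribosomal proteins 0 were called by limma, with 1 higher and 2 lower at an unadjusted p under 0.05 and changes of -0.22 to 0.14.

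**Figure D4:**
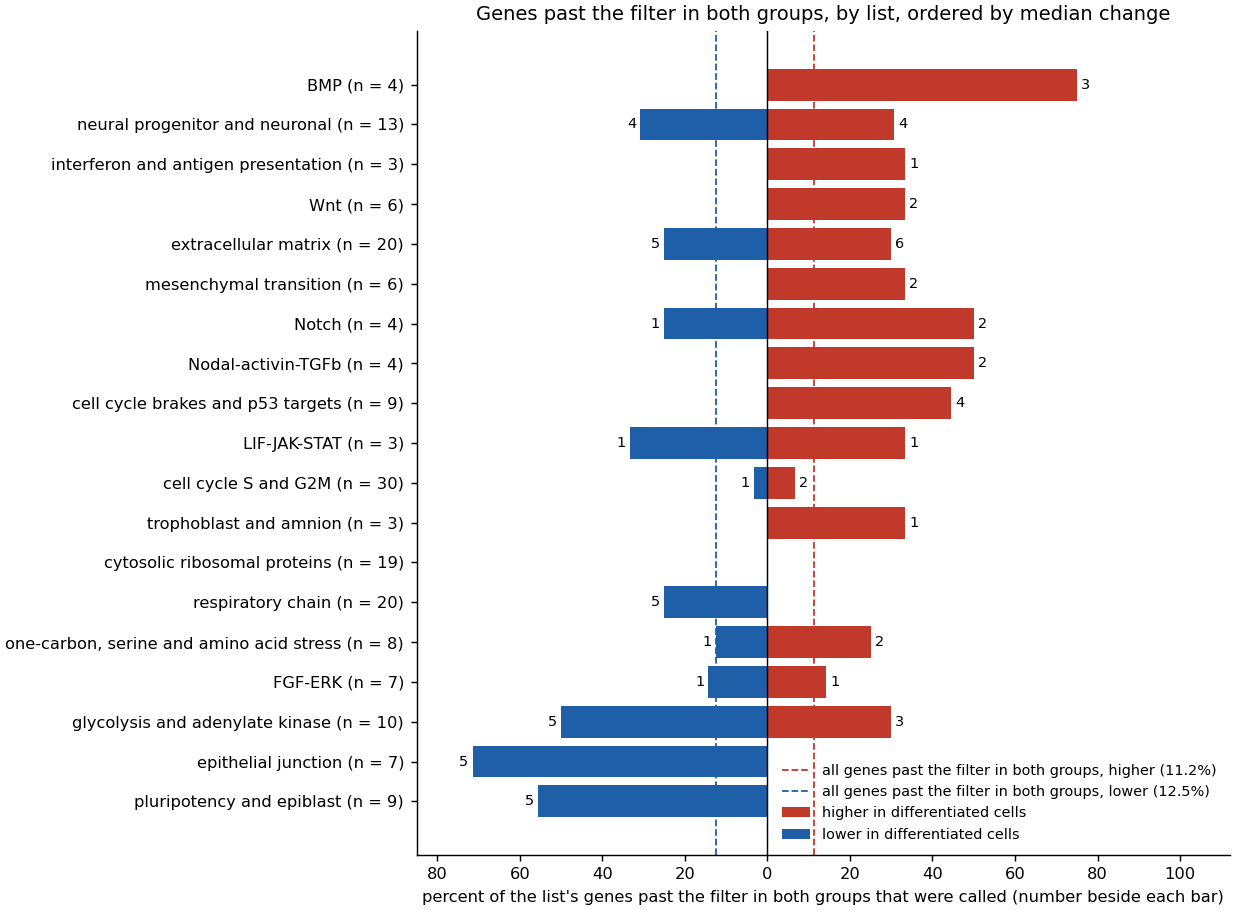
Percent of the genes of each list past the filter in both groups that were called higher (red, to the right) or lower (blue, to the left) in differentiated cells, for lists with at least 3 such genes, with the number called beside each bar, the number of such genes after each name and dashed lines at the background of 11.2% and 12.5%. The pluripotency list (5 of 9 lower) lies at the bottom and the BMP list (3 of 4 higher) at the top of the order by median, and the ribosomal list has no bar.

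Primed libraries of the same 7 lines, kept in bFGF medium, give a second reference for these levels. CRIPTO had 5.76, 33.2 and 83.7 RPM in the lowest, median and highest primed library, between its naïve-like and differentiated levels, and HESX1 had 3.99, 13.2 and 16.5 RPM. POU5F1 (median 238 RPM) and DPPA4 (median 120 RPM) were near their naïve-like levels in primed libraries. In contrast, C1H1orf115 (5.21 RPM), MARC2 (27.9 RPM) and AK4 (44.7 RPM) had primed medians nearer to the differentiated than to the naïve-like ones. Among the 357 genes that fell, the primed mean was nearer to the differentiated mean for 209 and nearer to the naïve-like mean for 148. Among the 315 that rose, the numbers were 176 and 139. PTN (median 57.2 RPM), COL11A1 (33.01 RPM), ELOVL2 (26.1 RPM) and WNT2B (8.69 RPM) were already present in primed libraries near their differentiated levels. ZIC1 (2.61 RPM), SSUH2 (0.92 RPM) and HOXA3 (0.43 RPM) had medians in primed libraries under 3 RPM and had their highest median after withdrawal. These levels are descriptions, since the genes were chosen for their change from the naïve-like libraries.

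The last comparison asked whether ESC and iPSC lines answered the withdrawal differently, as the study reports that some dome-shaped colonies remained in iPSC cultures. By RT-qPCR the study saw little difference between ESC and iPSC lines in pluripotency-related mRNAs after withdrawal. Per line changes were compared between the 3 ESC and the 4 iPSC lines. The 4 iPSC lines share a donor but were taken as independent by the test, so cell type and donor cannot be told apart. In limma's test 0 of 2654 genes differed at an adjusted p under 0.05, and 206 had an unadjusted p under 0.05. On simulated data of the same size the test found 41 of 50 genes whose change differed by 2 on the log2 scale, 15 of 50 that differed by 1 and 3 of 50 that differed by 0.5, with 4 other genes called, so most differences of 1 or less would be missed here. POU5F1 fell by 4.92 on average in ESC lines (-6.97 to -2.63) and by 3.56 in iPSC lines (-5.68 to -2.71). The difference of iPSC minus ESC lines was 1.35 (standard error 0.81, adjusted p = 0.792). CRIPTO changed by -5.74 and -5.48 (difference 0.26, standard error 0.75, adjusted p = 0.983) and HESX1 by -4.80 and -5.09 (difference -0.29, standard error 0.78, adjusted p = 0.976). Of the 20 genes with the largest falls and rises, the mean change was larger in ESC lines for 13 and in iPSC lines for 7, with adjusted p from 0.463 to 0.995.

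The lowest p belonged to ACTA1, the skeletal muscle actin. It changed by 0.78 on average in ESC lines (1.12 in CMK6, 1.23 in TRSK, -0.02 in CMK9) and by -0.80 in iPSC lines (-0.93 to -0.51), a difference of -1.57 (standard error 0.26, adjusted p = 0.0635). POT1, which binds telomere ends, fell by 1.37 in ESC lines (-1.96 to -1.03) and changed by -0.15 in iPSC lines (-0.63 to 0.16), a difference of 1.22 (standard error 0.25, adjusted p = 0.309). The ranges of ESC and iPSC lines did not overlap for either gene. Both genes were picked for the lowest p of this comparison, so the lack of overlap follows largely from the choice. Without CMK9, ACTA1 (-1.97, adjusted p = 0.000509) and SERPINB9 (-1.93, adjusted p = 0.0408) passed the threshold, and without iPS-S12, FMO5 did (5.27, adjusted p = 0.0433).

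**Figure D5:**
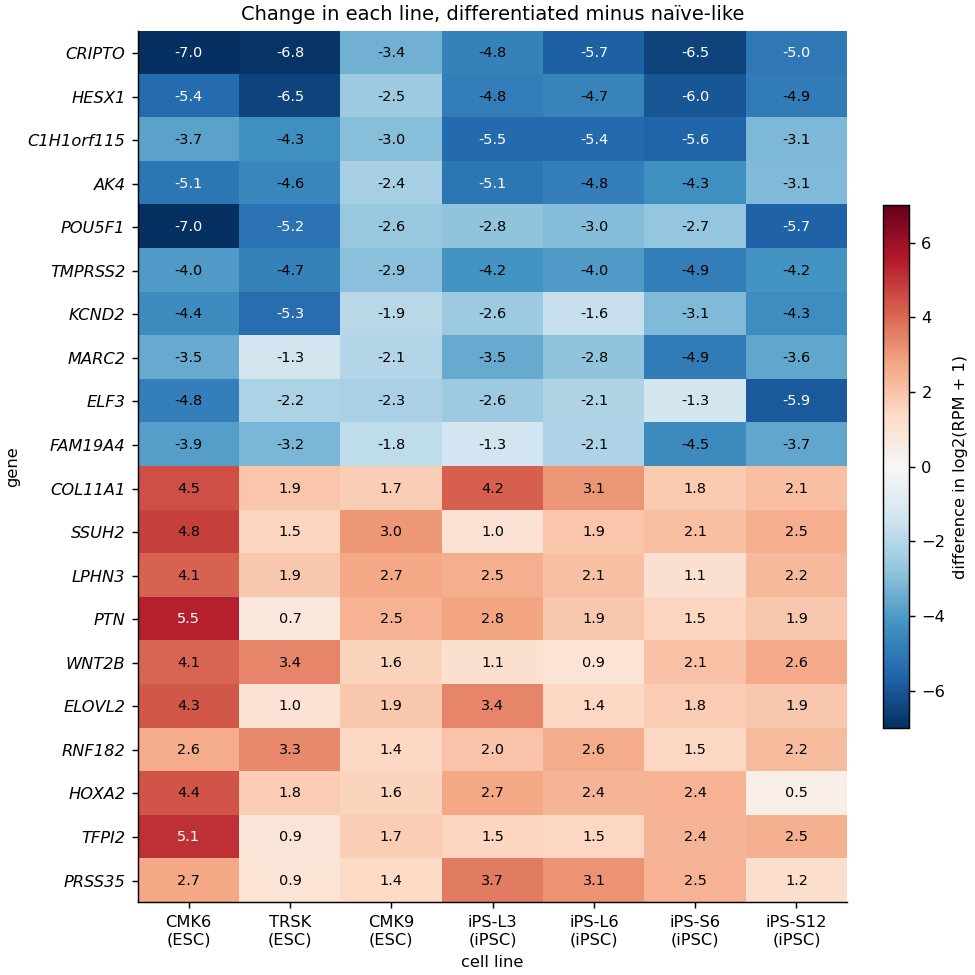
Change in log2(RPM + 1) from naïve-like to differentiated cells of the 10 genes with the largest falls (upper rows) and the 10 with the largest rises (lower rows) in each ESC and iPSC line, with the value printed in each cell and on the colour scale. The 20 genes were picked among called genes with the same direction in 7 of 7 lines, so this agreement follows from the choice. CMK9 has the smallest falls in 6 genes and CMK6 the largest rises in 8.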

How the data were processed

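SC3-seq libraries came from 1 ng of total RNA each, with spike-in RNA, and were read in single runs of 75 bp. The values deposited by the authors are RPM, which they obtained with Cufflinks 2.2.0 without regard to strand; the submitters' processing notes also name cutadapt 1.3 and TopHat 1.4.1. Between 88.1% and 92.9% of the values above 0 in the 14 libraries were whole multiples of 1 step (tolerance 0.02), so the values were not read counts and tests for counts were not used. The table analysed here held 8415 genes, of which 5551 are annotated on chromosomes 1 to 5, and 1 line that was cut short was left out. Of the gene IDs, 5564 matched the annotation of the assembly given for names, and 980 symbols came from it. No sequence or coordinates were used. Some called genes of the lists are counted but not reported here by name.

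Values were log2(RPM + 1), genes were kept above 4 in at least 1 of 14 libraries, and fold changes on this scale understate the change of low genes. limma 3.58.1 in R 4.3.3 was used with a mean-variance trend and the cell line as a block, and Benjamini-Hochberg adjusted p under 0.05 was called. All tests were two-sided. The lines pair the samples: after removal of the condition means, libraries of the same line correlated with a mean r of 0.408 (0.268 to 0.575 over 7 pairs), against -0.068 for 42 pairs of different lines. ESC and iPSC responses were compared as an interaction. On simulated data with 2654 genes, 20, 37, 50 and 50 of 50 genes changed by 0.5, 1, 2 and 4 were recovered, with 9 other genes called, and 0 without change. Tables and plots were made with Python 3.11.15, numpy 2.4.6 and pandas 2.3.3.

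Named genes were the 10 largest falls and rises among called genes with the same direction in 7 lines, up to 4 called genes per list by size of change, POU5F1 and SOX2, and the 2 genes of lowest p between ESC and iPSC lines. Further members of a list and the genes of the last paragraphs were named after their values were seen. The members and the gene lists were chosen with earlier results of these data known, so no list was tested as a whole. The level below which a gene was read as not detectable covers counting error only. Standard errors are those of the limma fits and reflect variation between lines. The replicates are lines and not repeat cultures of 1 line.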

Additional observations from a re-analysis of the deposited data

Results flagged for a closer look

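In groups of 7 libraries, or of 7 changes per line, the gap between the highest or lowest value and its neighbour was divided by the whole range and compared with the 95% critical value of Dixon's test. Of 246 groups over the named genes 23 were past it, where chance gives 12.3, and 17 of the 23 concerned CMK6.

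Naïve-like CMK6 was lowest in TWIST1 (gap over range 0.869), HOXA2 (0.699), ID4 (0.692), FSTL1 (0.653), CNN3 (0.624), SOX2 (0.619), PCOLCE (0.591), AFP (0.582) and CAV1 (0.572), and highest in KHDC3L (0.927) and DPPA5 (0.634). The change on withdrawal was highest in CMK6 for ID4 (0.742), CNN3 (0.637), GADD45A (0.635), TFPI2 (0.619) and WNT3A (0.611), and lowest for KHDC3L (0.699). This library had 2888000 reads, within the 902000 to 5619000 of the naïve-like libraries, and it is the single naïve-like library of the line.

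Among the others, naïve-like iPS-S6 was highest in FAM19A4 (0.652) and naïve-like TRSK in ANP32E (0.633). Differentiated TRSK was highest in PCOLCE (0.651), at 42.1 RPM. Differentiated CMK9 held the only value above 0 of TMPRSS2 (1.0), and differentiated iPS-L3 that of DPPA5 (1.0) and the highest of KHDC3L (0.853). The values of TMPRSS2, DPPA5 and KHDC3L in these 2 libraries were 0.84, 1.06 and 2.13 RPM and rest on few reads.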

How the results depend on the processing

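The 672 calls became 409 (179 higher, 230 lower) without the replicate block, all 409 shared with the paired fit, and 24 named genes lost their call. The other settings gave 453 (iPSC lines averaged into 1 replicate) to 733 (quantile normalization), and leaving out each line gave 541 to 653. Quantile normalization (371 higher, 362 lower) and library centring (373 higher, 318 lower) turned the larger side to the rises, as did averaging the iPSC lines (229 higher, 224 lower) and leaving out iPS-S6 (338 higher, 315 lower). Averaging the 4 iPSC lines of 1 donor ended the call of 18 of 75 named genes. The comparison of ESC and iPSC responses had 0 calls except without a line, where the range was 0 to 2. Of 75 called genes named, 42 kept their call in all alternatives tried and none changed sign. Genes that were not called changed sign in KHDC3L (-0.90 to 0.21 without a line, the latter without CMK6) and RPL9, a ribosomal protein, from 0.01 to -0.03 with quantile normalization, -0.01 with iPSC lines averaged and -0.05 to 0.05 without a line. The list counts without CMK6 and over genes past the filter in both groups were chosen after seeing the data. Depth limits low genes, since 3 reads were up to 3.32 RPM.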

Other observations

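The genes in this part were picked after their values were seen, from those called outside the lists, and stand as descriptions. Of the 672 genes called, 98 were in one of the lists. Receptors and ligands of axon guidance and neural adhesion were among the gains. SEMA3C, a secreted guidance cue, had 14.9, 28.9 and 73.0 RPM in the lowest, median and highest naïve-like library and 54.1, 116 and 310 RPM in differentiated libraries, a change of 1.85 (standard error 0.25, limma adjusted p = 0.000141). NRCAM, a neural adhesion molecule (1.81), ASTN1, which guides migrating neurons along glia (1.79), and PLXNA2, a semaphorin receptor (1.57), rose in 7 of 7 lines. BOC, a hedgehog coreceptor, rose by 2.09 (adjusted p = 0.00261) from a median of 2.67 to 13.98 RPM. ROBO1 and ROBO2 had fallen, so guidance receptors moved in both directions.

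WLS, the carrier that brings Wnt ligands to the cell surface, had 63.4, 126 and 209 RPM in naïve-like and 237, 335 and 536 RPM in differentiated libraries, a rise of 1.55 (standard error 0.17, adjusted p = 4.15e-05) without overlap. PHC2, a Polycomb subunit, rose by 2.01 (standard error 0.16, adjusted p = 2.06e-06), from 15.2, 33.6 and 50.95 RPM to 90.9, 125 and 155 RPM. CD47, the surface signal that restrains phagocytosis, rose by 1.87 (adjusted p = 0.00141) from a median of 25.0 to 68.4 RPM without overlap.

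Among the losses, NR5A2, a nuclear receptor that binds regulatory sequences of POU5F1, had 5.70, 11.7 and 25.6 RPM in naïve-like and 0, 0.36 and 4.25 RPM in differentiated libraries (-2.78, standard error 0.44, adjusted p = 0.000485). NR5A2 passed the filter in naïve-like libraries alone, which favours a fall. ZC3HAV1 and MOV10, RNA-binding proteins that restrict viruses and retroelements, fell without overlap, ZC3HAV1 by 2.54 (adjusted p = 2.06e-06) from a median of 74.3 to 15.3 RPM and MOV10 (adjusted p = 0.0005) from 26.6 to 7.83 RPM. HIBADH, a mitochondrial enzyme of valine breakdown (-1.46), TFB2M, a mitochondrial transcription factor (-1.56), and FOXO3 (-1.20) fell in 7 of 7 lines.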
